A study of Mus musculus with 7 samples.

Results

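A common set of genes differed from ES cells in the same direction in all 3 germ layers made from them, and these genes are described here. A gene was counted as lower when its signal in SK7_ESC was at least 2 times the brightest of the 3 germ layers, and as higher when the dimmest of the 3 layers was at least 2 times SK7_ESC, with every signal under 50, taken as background, raised to 50. Of 18194 genes, 370 were lower in all 3 layers, which is 2.03% of all genes, and 321 were higher, which is 1.76%. With the arrays scaled to the same median instead, 495 genes were lower and 257 higher. The genes were chosen by their signals in these 4 arrays, so that those signals are given as a description and nothing is read from the shares. All 3 ratios use the same SK7_ESC array, and no spread could be measured since there was 1 array for each cell type or tissue.

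Mouse ES cells are held in an undifferentiated state by a network of transcription factors built around Oct3/4 (Pou5f1), Nanog and Sox2, and leukemia inhibitory factor (LIF) sustains further factors that distinguish the ground state from later stages. Many genes of early germ cells are also transcribed in ES cells. On leaving this state cells shut down the network and take up programmes of adhesion, signalling and morphogenesis that several lineages have in common.

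SK7_ESC is a male mouse ES cell line that carries a GFP reporter transgene driven by the Pdx1 promoter, and Ect, End and Pme are ectoderm, endoderm and paraxial mesoderm differentiated from this single line in culture. Untreated male ICR mice older than 9 weeks gave Brain, Liver and Sk_muscle (skeletal muscle), and the labels give ICR as strain for the cultured cells as well. The sources used here do not say how many mice or cultures contributed RNA to each array. The labels and the methods also name different RNA extraction reagents. RNA was hybridized to Affymetrix Mouse Genome 430 2.0 arrays, and the deposited signals had been scaled to an average of 100 in each array. Between 7824 genes in Liver and 9086 in Brain had a signal of 50 or more, with 8086 in SK7_ESC against 8584, 8291 and 8627.

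Where 3 signals of the layers are given together, they are those of Ect, End and Pme in this order. The ES cell markers Dppa5a, Zfp42 and Dnmt3l were bright in SK7_ESC and under background in the 6 other arrays. Of 4 ectoderm markers, Zic1 was 2889 and Fabp7 2986 in Ect against at most 11 in SK7_ESC, Sox1 was 337.2 against 118.1, and Pax6 was under background in all 4 cultured arrays. The endoderm markers Sox17, Foxa2, Cer1 and Cxcr4 were 2942, 958.2, 1083 and 1711 in End and at most 70.7 in SK7_ESC. Of these, Cxcr4 was higher in all 3 layers and thus not particular to End. Among the paraxial mesoderm markers, Pdgfra was 1062 in Pme, whereas Tbx6 was 17.7 and Meox1 16.0 there, both under background, and Tcf15 was 29.1 in Pme against 110.8 in SK7_ESC. Of 17 fibroblast and feeder cell genes, 14 had a higher signal in Pme than SK7_ESC did, as had 3 in the Ect array and 1 in the End array, at 2-fold. Over all genes, Ect had 889 lower ones (4.89%), End 693 (3.81%) and Pme 827 (4.55%), and 1206 (6.63%), 889 (4.89%) and 1228 (6.75%) were higher. The summed signal of the fibroblast genes was 1649 in SK7_ESC against 3012, 877 and 12420, with 7, 6, 11 and 3 of the 17 under background. Only 1 of them, Dcn, was higher in all 3 layers, and Mgp was lower. The summed signals of 11 blood and endothelial genes lay between 78.9 and 264.8 in the cultured arrays, with 9 to 11 of the genes under background in each. Of 13 extraembryonic endoderm and trophoblast genes and 11 mesonephros and gonad genes, 0 were lower or higher in all 3 layers, although the former summed to 524.8 in SK7_ESC against 621.2, 9748 and 7722, and the latter to 86.4, 228.8, 2395 and 411.4. The part that other cells in the cultures had in the results was not tested.

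Promoter sequence is shown for 4 lower and 2 higher genes, picked by name and not by a rule. Of the 4 lower genes shown, Zfp42, Nanog and Pou5f1 are ES cell factors and Chchd10 is not. The octamer ATGCAAAT and the Sox letters ACAATG are the DNA words that Oct and Sox family proteins are known to read. Each run gives the 250 bases before the transcription start, 5′ to 3′ on the strand of the gene, from RefSeq on GRCm38.p6, and capitals are placed on the octamer or the Sox letters on either strand. Zfp42 lies at chr8:43307010-43307259 (minus strand), Nanog at chr6:122707239-122707488 (plus strand), Chchd10 at chr10:75932880-75933129 (plus strand) and Pou5f1 at chr17:35505782-35506031 (plus strand). The higher genes are Id3 at chr4:136143572-136143821 (plus strand) and Jun at chr4:95052223-95052472 (minus strand). For Nanog and Pou5f1 the table lists 2 starts, and the first listed was taken.
Zfp42: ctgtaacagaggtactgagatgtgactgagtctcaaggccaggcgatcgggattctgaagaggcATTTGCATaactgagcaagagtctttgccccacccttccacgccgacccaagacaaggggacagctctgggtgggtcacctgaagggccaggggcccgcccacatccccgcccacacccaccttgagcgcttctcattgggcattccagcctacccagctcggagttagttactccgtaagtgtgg
Nanog: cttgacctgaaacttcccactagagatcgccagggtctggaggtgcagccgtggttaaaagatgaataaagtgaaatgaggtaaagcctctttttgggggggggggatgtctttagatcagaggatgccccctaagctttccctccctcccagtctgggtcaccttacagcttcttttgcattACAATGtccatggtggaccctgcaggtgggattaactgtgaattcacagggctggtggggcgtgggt
Chchd10: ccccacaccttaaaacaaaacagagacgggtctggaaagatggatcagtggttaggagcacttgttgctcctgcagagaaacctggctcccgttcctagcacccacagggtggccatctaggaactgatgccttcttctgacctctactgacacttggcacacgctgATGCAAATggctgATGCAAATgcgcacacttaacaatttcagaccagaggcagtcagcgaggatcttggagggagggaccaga
Pou5f1: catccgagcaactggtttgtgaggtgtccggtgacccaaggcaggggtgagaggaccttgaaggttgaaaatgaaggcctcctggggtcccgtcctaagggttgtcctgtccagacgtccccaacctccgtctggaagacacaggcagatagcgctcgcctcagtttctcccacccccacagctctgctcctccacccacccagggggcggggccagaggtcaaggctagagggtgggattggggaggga
Id3: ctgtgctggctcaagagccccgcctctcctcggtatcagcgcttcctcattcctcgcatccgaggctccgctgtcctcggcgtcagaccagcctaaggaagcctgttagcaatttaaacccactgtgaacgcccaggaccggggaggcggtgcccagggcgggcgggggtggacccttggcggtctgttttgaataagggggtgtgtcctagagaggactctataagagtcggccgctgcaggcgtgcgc
Jun: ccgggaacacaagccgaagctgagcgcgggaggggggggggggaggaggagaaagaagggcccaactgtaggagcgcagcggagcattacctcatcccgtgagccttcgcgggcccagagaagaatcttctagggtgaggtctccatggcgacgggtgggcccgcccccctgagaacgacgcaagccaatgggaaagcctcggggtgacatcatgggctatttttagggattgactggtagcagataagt
The octamer was found once in Zfp42 and at 2 places in Chchd10, and the Sox letters once in Nanog, 67 bases before the start. Neither was found in these windows of Pou5f1, Id3 or Jun. Of 32851 promoters of this length, 1.60% held the octamer and 10.7% the Sox letters. These matches are a description of letters and not of bound sites. Because the genes were picked, nothing is read from their matches beside the shares over all promoters. RefSeq promoters were at hand for 292 of the 370 lower genes (78.9%) and 250 of the 321 higher genes (77.9%), under the 80% asked for, so that a comparison of base composition or motif shares between the sets is void.

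The lower genes were lower by similar amounts in the 3 layers. Their median signal was 303.6 in SK7_ESC against 49.8, 61.5 and 56.8, and 137 of them (37.0%) were under background in all 3 layers. The layers lay within 2-fold of each other for 315 genes (85.1%), a share to which genes raised to background in every layer contribute. By signals before the raising to 50, the brightest layer was End for 169 of the 370 genes, Pme for 102 and Ect for 99. For the 137 genes under background in every layer this order compares background signals, and no layer is nearest to SK7_ESC by the ratio. Most differences were modest. The ratio of SK7_ESC to the brightest layer had a median of 2.56, was under 3 for 220 genes (59.5%), and reached 5 for 60 genes and 10 for 24. In these bulk samples, fewer cells of a type and less RNA per cell cannot be told apart.

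Among the higher genes the median signal was 70.9 in SK7_ESC against 300.0, 261.6 and 301.5, and SK7_ESC was under background for 92 of 321 (28.7%). Their layers lay further apart from each other, but the rule and the raising to background limit the spread of the lower genes. Of the 157 lower genes above background in all 3 layers, 128 had layers within 2-fold. The layers of the higher genes lay within 2-fold for 231 genes (72.0%) and were 5-fold or more apart for 24, against 9 of the lower genes. Nothing is read from this difference. Large ratios were also rarer among the higher genes, with a median of 2.47, 236 genes (73.5%) under 3, 17 at 5 or more and 3 at 10 or more. At the threshold, the lower genes just inside were Acot1 at a ratio of exactly 2, C77080, Pim1, Fnip2 and Atg4d at 2.01, and just outside were Lap3 at 1.996, Rif1 and Rangrf at 1.99, and Arntl and Gabpa at 1.99. For the higher genes, Zyg11b at 2.003 and Zkscan3, E2f7, Sufu and Plgrkt at 2.01 were inside, and Klhl5, Fmnl2, Clip1, Sh3pxd2a and Ptbp2, between 1.986 and 1.994, were outside. Between ratios of 1.8 and 2.2 the lower direction had 93 genes inside and 133 outside, and the higher direction 93 and 122.

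**Figure D1:**
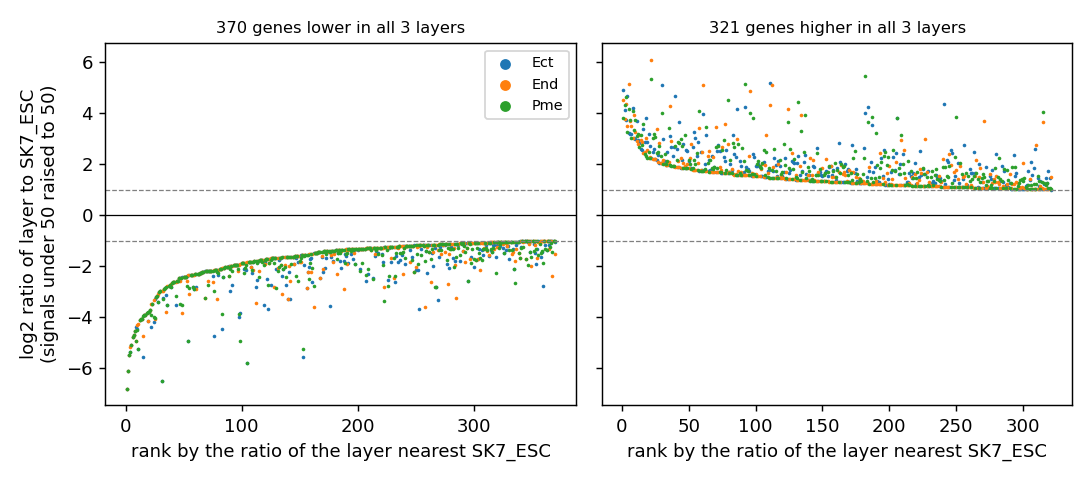
Log2 ratio of Ect, End and Pme to SK7_ESC (y axis, signals under 50 raised to 50) for the 370 lower and 321 higher genes, ranked on the x axis by the ratio of the layer nearest to SK7_ESC, with dashed lines at 2-fold. The points of the 3 layers fall on each other for much of the lower set, where the rule and the raising to 50 limit their spread. In the higher set, 24 genes have layers 5-fold or more apart.

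Of 11 measured core factors, 5 were lower in all 3 layers and 0 higher, and of 22 ground state genes, 16 were lower and 0 higher. For the ground state list the median log2 ratio was -2.87, -1.93 and -2.77 in the layers. Over all genes it was 0.00 in each layer, a value largely set by the raising of dim signals to background. In SK7_ESC 10108 of 18194 genes were under background, against 1 of the 22 ground state genes, so the 0.00 is no baseline for the list. Pou5f1, the core factor Oct3/4, reached 2038 in SK7_ESC against 7.5, 57.3 and 25.7, and was at most 2.2 in the adult tissues. Nanog was 1533 in SK7_ESC against 6.8, 299.5 and 27.8. Of the layers, only End had a signal above background, and there SK7_ESC was 5.12-fold brighter.

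Tdgf1, which encodes the Nodal coreceptor Cripto, had the same shape, with 2788 in SK7_ESC against 8.8, 773.7 and 37.6. Utf1, a chromatin-bound protein of ES cells, was 1384 in SK7_ESC against 1.1, 37.1 and 18.2. The growth factor gene Fgf4, an Oct and Sox target, was 195.5 in SK7_ESC against 21.0, 14.2 and 12.2. Thus 3 of these 5 genes were at or near background in every layer and 2 had a clear signal in End. The other core genes did not meet the rule. Sox2 was 3030 in SK7_ESC against 2369, 52.1 and 167.3, so that it was lower in End and Pme and not in Ect. Sall4 was 1565 against 495.0, 2947 and 1274, and Lin28a was 898.3 against 448.3, 1542 and 1049, both lowest in Ect and brighter in End than in SK7_ESC.

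The most extreme gene of either direction was Dppa5a, an RNA-binding protein gene of early embryos, with 5574 in SK7_ESC against 19.9, 17.6 and 26.8, so that SK7_ESC was at least 111-fold brighter. Zfp42 (Rex1), a zinc finger gene long used as an ES cell marker, was 3415 in SK7_ESC against 15.9, 28.0 and 18.5, at least 68.3-fold apart. Fbxo15, an F-box gene of the ES cell network, was 1702 against at most 13.7. All 3 were also under background in the 3 adult tissues.

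The Krüppel-like factors Klf2, Klf4 and Klf5 maintain the ground state in ES cells. Klf4 was 893.5 in SK7_ESC against 33.5, 18.6 and 63.9, and Klf2 was 689.0 against 22.4, 14.0 and 34.4. Klf5 was 796.6 in SK7_ESC, 22.9 in Ect and 54.0 in Pme but 207.6 in End. Klf2 and Klf4 were 309.8 and 322.2 in Sk_muscle, so that both were above background in an adult tissue.

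Nr0b1 (Dax1), an orphan nuclear receptor that binds Oct3/4, was 561.8 in SK7_ESC, with at most 3.7 in the layers. Tfcp2l1, a LIF-responsive transcription factor, was 311.0 against at most 16.8, and Esrrb, an orphan nuclear receptor, was 185.0 against at most 26.7. The Esrrb probe set is of a kind that can hybridize to related sequences. Nr5a2, which can replace Oct3/4 in reprogramming, was 152.5 in SK7_ESC, with at most 7.4 in the layers but 641.7 in Liver, an organ in which it regulates bile acid genes. Prdm14 (137.1), Tcl1 (374.8) and Gdf3 (404.7 in SK7_ESC) were likewise under background in every layer, whereas the cell cycle factor gene Mybl2 was 1395 in SK7_ESC and between 82.1 and 142.5 in the layers. Of the 6 ground state genes outside the rule, Eras, an ES cell Ras gene, was 776.3 in SK7_ESC against 13.2, 1611 and 7.8, thus under background in Ect and Pme. Tbx3, a T-box factor gene, was 194.2 against 8.1, 53.5 and 130.5, and only Pme lay within 2-fold of SK7_ESC.

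**Figure D2:**
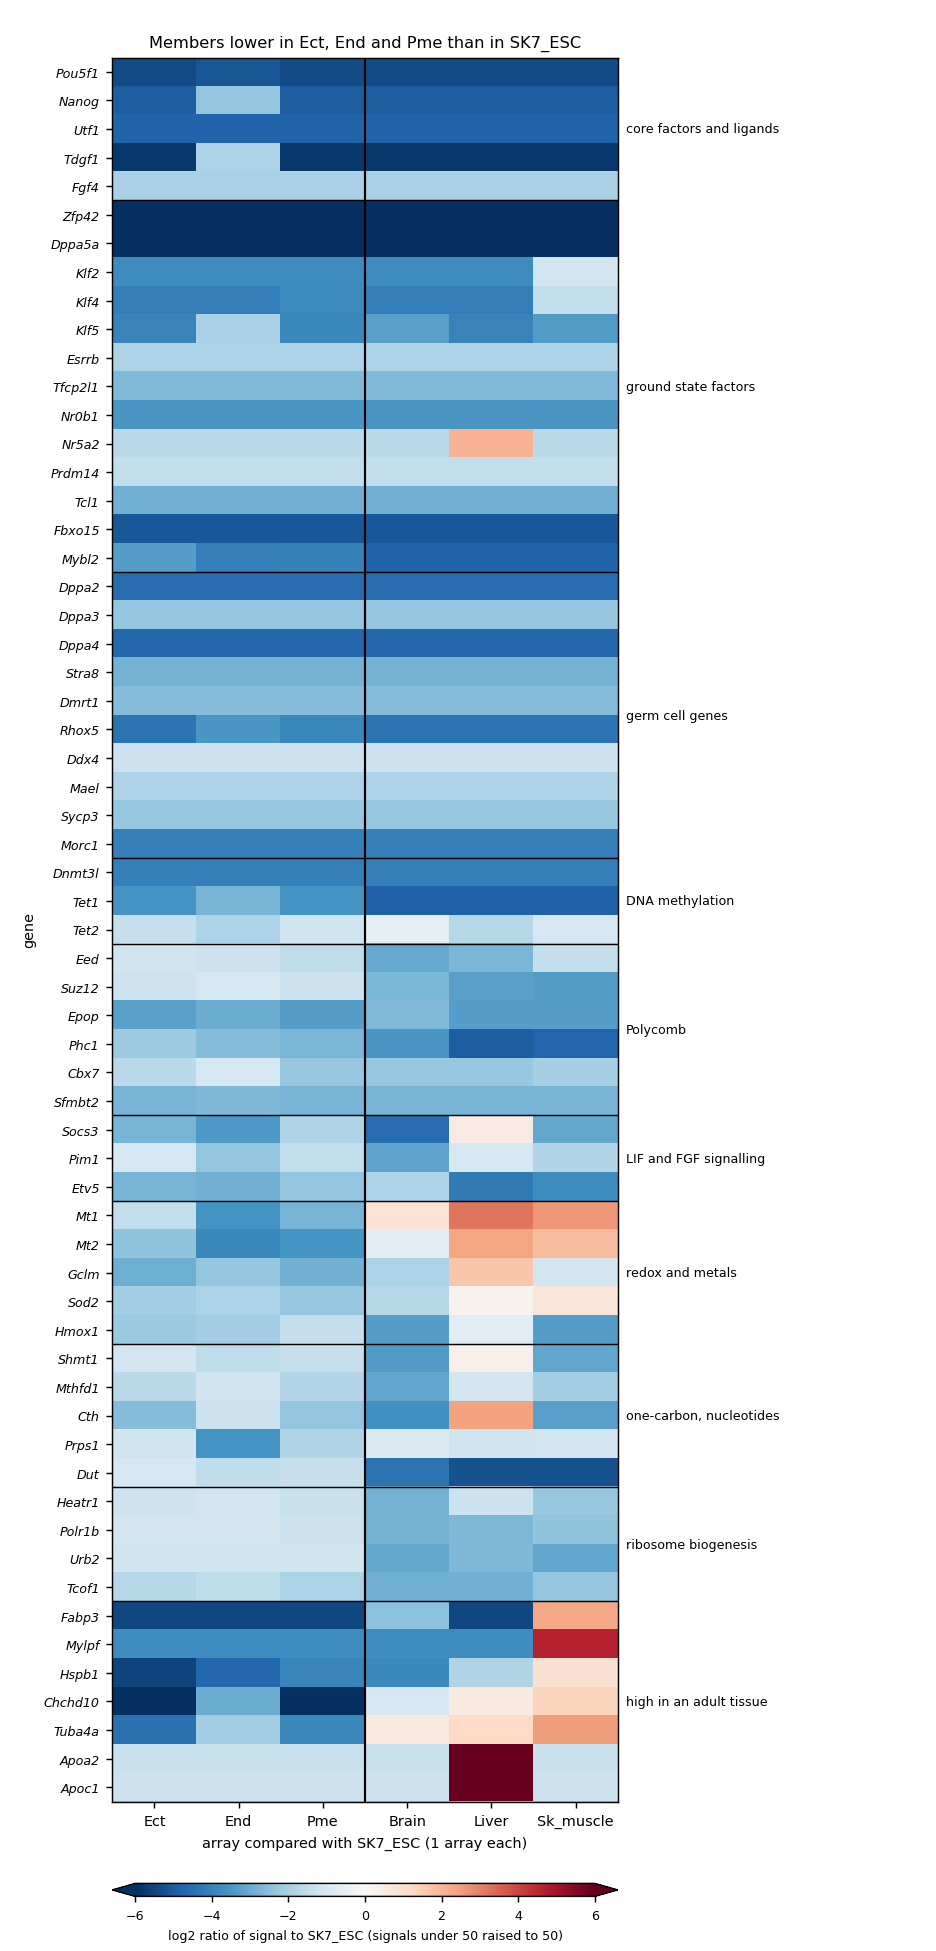
Log2 ratio of signal to SK7_ESC (colour, blue lower and red higher, signals under 50 raised to 50, colours ending at 6) for named lower genes in lines, grouped by role, with 1 array in each column. Dppa5a is lowest against its 5574 in SK7_ESC, the paler End cells of Nanog, Tdgf1 and Klf5 stand for their signals of 299.5, 773.7 and 207.6, and red cells are genes brighter in an adult tissue than in SK7_ESC, as Nr5a2 in Liver at 641.7 and Mylpf in Sk_muscle at 16521.

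Genes of early germ cells also belonged to the lower set. Of 16 measured Dppa and early germ cell genes, 9 were lower in all 3 layers and 0 higher, and of 24 genes of meiosis and transposon silencing, 3 were lower and 0 higher, although only 4 of the 24 reached 100 in SK7_ESC. Dppa2 and Dppa4, neighbouring genes for DNA-binding proteins of the early embryo, were 1175 and 1289 in SK7_ESC. In the layers Dppa2 was 7.7, 7.8 and 2.7 and Dppa4 20.1, 37.5 and 43.2, all under background. Dppa3 (Stella), which protects DNA methylation in the zygote, was 252.4 against at most 18.7.

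Stra8, the retinoic acid-responsive gene needed to enter meiosis, was 359.7 in SK7_ESC against 7.2, 11.7 and 5.1. Dmrt1, a testis transcription factor, was 302.6 against at most 11.8, and Tfap2c, a factor of germ cell specification, was 348.4 against 24.3, 69.4 and 17.9. The X-linked homeobox gene Rhox5 was 1051 in SK7_ESC against 17.8, 93.4 and 69.7. Each of these 4 was under background in Brain, Liver and Sk_muscle.

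Ddx4 (Vasa), an RNA helicase of the germ line, was 121.2 in SK7_ESC, with at most 8.9 in the layers. Mael and Rnf17, of the piRNA pathway that silences transposons, were 180.1 and 160.2 against at most 5.1 and 8.5. Sycp3, a structural protein of the meiotic chromosome axis, was 242.2 against at most 14.1, and Morc1, which silences transposons in male germ cells, was 867.2 against at most 0.8. Where a germ cell gene did not meet the rule, it was often dim in SK7_ESC already, as with Dazl at 67.8, Rhox6 at 63.4, Rhox9 at 71.1 and Tex14 at 62.9. Kit, the stem cell factor receptor gene, was 315.4 in SK7_ESC against 130.5, 741.1 and 257.2.

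Of 12 measured genes of DNA methylation and its removal, 4 were lower in all 3 layers and 0 higher. Dnmt3l, the cofactor of the de novo methyltransferases, was 848.4 in SK7_ESC against 15.0, 1.6 and 7.5, which makes SK7_ESC at least 17.0-fold brighter. Tet1, which oxidizes 5-methylcytosine, was 1444 in SK7_ESC against 124.7, 207.8 and 125.3. Tet2, of the same family, was 210.1 against 81.3, 58.6 and 91.1, and Gadd45a, implicated in demethylation, 398.5 against 124.3, 55.9 and 109.2. The de novo enzyme gene Dnmt3b was 1888 in SK7_ESC against 333.4, 3480 and 599.1, so that it was lower in Ect and Pme and brighter in End. The maintenance enzyme gene Dnmt1 was 710.2 against 788.7, 458.6 and 520.8, within 2-fold in every layer.

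The Polycomb complexes place repressive histone marks on developmental genes. Of 29 measured subunits, a family chosen with the values known, 6 were lower in all 3 layers and 2 higher. The PRC2 core genes Eed and Suz12 were 1743 and 1035 in SK7_ESC. In Ect, End and Pme, Eed was 765.7, 724.7 and 611.1 and Suz12 was 433.9, 506.1 and 422.4, close to the threshold at ratios of 2.28 and 2.05. The catalytic subunit gene Ezh2 was 1537 in SK7_ESC and between 1211 and 1668 in the layers.

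Epop, an ES cell partner of PRC2, had a larger difference, with 493.0 in SK7_ESC against 52.3, 63.1 and 32.5. The PRC1 genes Phc1 and Cbx7 were 1545 and 238.1 in SK7_ESC, against 228.5 to 337.1 and 47.3 to 114.0 in the layers. Sfmbt2, a Polycomb protein of early trophoblast, was 348.4 against at most 53.8. The 2 higher genes were Yaf2, a RYBP paralog, with 196.8 in SK7_ESC and 786.4, 573.0 and 860.4 in the layers, and L3mbtl3 with 60.3 and 125.4, 139.2 and 286.1. Rnf2, the ubiquitin ligase gene of PRC1, was 599.8 in SK7_ESC and between 671.3 and 875.1, so that neither catalytic gene met the rule.

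Signals that hold ES cells in self-renewal were represented by a few genes. Of 15 genes of LIF, JAK-STAT and PI3K signalling, 4 were lower in all 3 layers. Socs3, the feedback inhibitor induced by LIF, was 1185 in SK7_ESC against 169.7, 108.0 and 337.8, and the kinase gene Pim1 was 450.0 against 224.1, 86.4 and 164.2. Jak2, the kinase that couples cytokine receptors to STAT factors, was higher, with 36.4 in SK7_ESC and 173.1, 122.1 and 147.4 in the layers. Among 17 FGF and ERK pathway genes 1 was lower, the transcription factor gene Etv5, with 936.0 in SK7_ESC and 133.4, 127.0 and 187.8 in the layers, while the ERK phosphatase gene Dusp6 was 478.3 in SK7_ESC and between 400.2 and 560.4.

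Genes of redox and growth metabolism were also lower, in families chosen with the values known. Of 25 metallothioneins and redox enzymes, 10 were lower in all 3 layers and 0 higher. Mt1 and Mt2, metal-binding proteins encoded side by side, were 1430 and 1926 in SK7_ESC. Mt1 was 506.2, 119.0 and 207.4 in the layers, and Mt2 was 357.7, 133.2 and 168.1, so that the lowest signals of both were in End. Gclm, the regulatory subunit of glutathione synthesis, was 466.7 in SK7_ESC against 61.9, 93.0 and 63.2, and Sod2, the mitochondrial superoxide dismutase, was 1570 against 366.8, 427.0 and 322.0. The heme oxygenase gene Hmox1 was 494.1 against signals between 106.8 and 182.4.

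Of 25 enzymes of folate, nucleotide and polyamine metabolism, 10 were lower and 1 was higher. Mthfd1, a folate enzyme, was 1614 in SK7_ESC against 522.2, 702.4 and 471.7, and Shmt1, the cytosolic serine hydroxymethyltransferase, was 535.3 against 241.5, 185.0 and 205.8. The ribose phosphate enzyme gene Prps1 was 1329 in SK7_ESC, 588.6 in Ect and 385.9 in Pme but 110.0 in End. Cth, which makes cysteine, was 648.6 against 107.8, 263.2 and 127.4, and 3459 in Liver. Mthfd2l, a mitochondrial folate enzyme, was the exception, with 15.5 in SK7_ESC and 409.7, 172.1 and 201.9 in the layers. Its other probe sets, at 47.5, 66.9 and 37.6 in End, did not meet the rule.

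Ribosome biogenesis genes were all at 100 or more in SK7_ESC, and 10 of 27 were lower in all 3 layers, with median log2 ratios over the 27 of -1.07 in Ect, -0.95 in End and -1.21 in Pme. Over all genes at 100 or more in SK7_ESC, 5.97% were lower in the 3 layers. The differences were small and even. Heatr1, a factor of the small subunit processome, was 749.7 in SK7_ESC against 315.8, 342.3 and 297.1, and Polr1b, a subunit of RNA polymerase I, was 361.5 against 162.4, 167.1 and 146.4. Urb2 was 427.8 against 189.3, 184.1 and 185.2. Tcof1, the nucleolar protein altered in Treacher Collins syndrome, had the largest ratio of the 10, with 367.0 against 110.7, 128.3 and 99.9. Of 28 cell cycle genes, 1 was lower in all 3 layers, Ccne1, with 514.5 in SK7_ESC and 251.1, 149.9 and 80.6 in the layers.

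Several further genes among the 20 steepest lower ones are not pluripotency factors. Fabp3, the fatty acid binding protein of heart and muscle, was 2227 in SK7_ESC against 37.1, 44.8 and 26.8, and 11157 in Sk_muscle. Mymx, a peptide of myoblast fusion, was 829.5 in SK7_ESC, with at most 5.2 in the layers. Hspb1, a small heat shock protein, was 2866 against 60.3, 108.3 and 186.2.

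L1td1, an RNA-binding protein derived from a LINE-1 element, was 1924 in SK7_ESC against 3.8, 100.8 and 34.5. Trap1a, an X-linked tumour rejection antigen gene, was 1535 against at most 73.0, and Mageb16, of the MAGE family, 757.2 against at most 15.8. Ipp, a gene first found as a transcript driven by an intracisternal A particle element, was 2065 in SK7_ESC and between 91.8 and 103.5 in the layers. Rpl39l, a ribosomal protein paralog also known from testis, was 755.4 against at most 4.6.

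A few lower genes had a clear signal in a single layer. Upp1, the uridine phosphorylase gene, was 2387 in SK7_ESC, 30.0 in Ect and 62.7 in Pme but 802.9 in End. Chchd10, a mitochondrial protein gene, was 4519 in SK7_ESC against 32.5, 577.6 and 28.0, and between 2343 and 11563 in the adult tissues. Among the 9 lower genes whose layers were 5-fold or more apart, Trim25, at 41.7 in Ect against 280.1 and 284.8, and Prps1 did not have End as the single high layer.

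The largest ratios of the higher genes were those of Cdh2, Id3 and Jun. Cdh2, the N-cadherin gene, was 52.2 in SK7_ESC against 1545, 1205 and 733.9, the dimmest layer being 14.1-fold above SK7_ESC. Cdh11, a mesenchymal cadherin gene, was 47.9 in SK7_ESC and 800.3, 118.9 and 2208 in the layers, the largest spread between layers of any higher gene, at 18.6-fold. Of 27 adhesion and junction genes, 2 were higher in all 3 layers (7.41%) and 2 lower, the lower ones being the integrin gene Itga6 and the connexin gene Gjb5. For this and the families below, 1.76% of all genes were higher. Of the 5539 genes at 100 or more in all 3 layers, which the higher rule requires, 5.8% were. The matrix genes Col6a1 and Fbn2 were also higher, at 58.7 and 11.3 in SK7_ESC and at least 153.5 and 105.6 in the layers. Of the layers, Pme had the highest signals of Cdh11, Col6a1 and Dcn, and it was the array in which 14 of 17 fibroblast genes were higher.

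Components of TGF-beta and BMP signalling were found among the higher genes at the level of ligand, receptor and signal transducer. Of 23 genes of the Nodal, BMP and TGF-beta list, 7 were higher in all 3 layers and 2, the ligand gene Gdf3 and the coreceptor gene Tdgf1, were lower. The ligand gene Tgfb2 was 8.3 in SK7_ESC against 108.0, 168.7 and 724.9. Its other probe sets, at 59.1, 16.6 and 64.9 in Ect and 86.4, 25.5 and 87.0 in End, did not meet the rule. Of the receptors, Tgfbr1 was 187.3 in SK7_ESC and 1207, 646.7 and 682.4 in the layers, Bmpr2 was 174.4 against 397.8, 463.8 and 588.5, and Acvr2a was 75.1 against 310.6, 196.7 and 208.1. Other probe sets of Tgfbr1, at 25.6 and 31.7 in SK7_ESC, did not meet the rule.

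Among 8 Smad genes, a family chosen with the values known, 3 were higher. Smad5, which carries BMP signals, was 77.7 in SK7_ESC and nearly equal in the layers at 226.2, 219.3 and 212.8, Smad1 was 296.8 against 600.4, 2011 and 689.4, and Smad3, which carries TGF-beta signals, was 113.4 against 505.2, 245.5 and 332.6. The common partner Smad4 was 729.7 in SK7_ESC and between 1158 and 1218 in the layers, outside the rule.

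The Id genes, BMP targets that encode inhibitors of basic helix-loop-helix factors, were higher for 3 of 4 members, also chosen with the values known. Id3 was 47.0 in SK7_ESC against 878.6, 675.9 and 991.0, at least 13.5-fold. Id1 was 107.1 in SK7_ESC and 301.9, 948.9 and 593.7 in the layers, brightest in End, while Id2 was 93.2 and 1744, 220.8 and 1178, dimmest in End. Id4 was 85.2 in SK7_ESC against 237.7, 28.5 and 41.5, and thus higher in Ect alone. The other bright probe set of Id2 was 754.0 in Ect and 355.1 in Pme but 41.0 in End, under background.

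Some genes of Wnt receptors and secretion were among the higher genes. Of 10 Frizzled receptor genes, a family chosen with the values known, 3 were higher. Fzd2 was 47.5 in SK7_ESC and 381.7, 349.5 and 450.5 in the layers, Fzd3 was 63.7 and 1293, 138.1 and 166.7, and Fzd6 was 43.3 and 115.3, 274.3 and 179.2. Wls, which escorts Wnt ligands to the cell surface, was 56.9 in SK7_ESC against 1042, 460.8 and 967.4. The Fzd3 difference in End and Pme rests on 1 of 6 probe sets, since the other 5 were under background there. Of the 23 genes of the Wnt list, 2 were higher (8.70%) and 0 lower, where 5.8% of all genes at 100 or more in the 3 layers were higher. Glypicans, heparan sulfate proteoglycans that hold Wnt, Hedgehog and FGF ligands at the membrane, were higher for 3 of 6 members, again chosen with the values known, of which Gpc3 was 60.5 in SK7_ESC and 558.3, 2118 and 1072 in the layers.

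Hippo pathway genes were higher for 8 of 22 members, chosen with the values known, and lower for 0. Over all genes, 1.76% were higher, and nothing is read from the distance since the family was chosen. Amot, a membrane scaffold that binds YAP, was 71.1 in SK7_ESC against 336.9, 4848 and 2907. Its relatives Amotl1 and Amotl2 were 109.3 and 115.6 in SK7_ESC and between 255.4 and 446.0 in the layers. Lats1, the kinase that phosphorylates YAP, was 108.0 against 361.2, 343.8 and 304.4, and its activator Mob1b was 43.2 against 144.7, 179.6 and 125.5.

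At the end of that pathway, the DNA-binding partner Tead2 was 211.2 in SK7_ESC and 545.4, 686.0 and 456.4 in the layers, and the YAP target Ccn1 (Cyr61) was 62.4 and 563.3, 797.7 and 839.4. The Amot difference in Ect rests on 1 of 3 probe sets, since the other 2 were 42.0 and 58.5 in Ect.

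Receptors of further developmental pathways followed. In the Hedgehog family of 10 genes, chosen like the Notch receptors with the values known, 3 were higher, namely Smo, the signal transducer, with 118.4 in SK7_ESC and 459.6, 325.4 and 397.8 in the layers, Sufu, the inhibitor of Gli factors, with 62.1 and at least 124.9, and the coreceptor gene Gas1, with 79.2 and 2753, 325.8 and 1273. Another probe set of Gas1 was 36.1 in SK7_ESC and 83.7 in End, and did not meet the rule. Of 4 Notch receptor genes 2 were higher, Notch2 with 220.5 in SK7_ESC and 454.4 to 535.1 in the layers, and Notch3 with 120.6 and 300.3 to 360.2. Axon guidance genes, which also steer other migrating cells, were higher for 6 of 27 members and lower for 0. Slit2, a secreted guidance ligand, was 63.4 in SK7_ESC and 466.2, 263.6 and 215.7 in the layers, its receptor gene Robo1 was 48.9 and 219.8, 596.6 and 157.7, and Nrp1, a semaphorin and VEGF coreceptor, was 30.9 and 100.8, 620.0 and 819.4.

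Imprinted genes, transcribed from 1 parental allele, were higher for 8 of 31 members, chosen with the values known, and lower for 0. Peg3, a zinc finger gene, was 244.3 in SK7_ESC against 818.7, 2596 and 4115, and Mest, a gene of embryonic mesoderm, was 716.8 and 3748, 2163 and 4590. Ndn, a growth suppressor gene of neurons, was 166.0 and 1458, 513.0 and 1165. Sgce, the paternally expressed epsilon-sarcoglycan gene, was 84.2 and 307.2, 394.2 and 667.1.

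Others of this class were higher in fewer layers and did not meet the rule. Igf2, the fetal growth factor gene, was 121.0 in SK7_ESC against 185.7, 583.0 and 2384. Plagl1, a zinc finger gene, was 196.8 in SK7_ESC and 216.6 in End but 3764 in Ect and 1340 in Pme.

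Of 16 stress and immediate early genes, 3 were higher in all 3 layers and 2 were lower. Counted by layer, 5 were lower and 3 higher in Ect, 5 and 3 in End, and 3 and 7 in Pme. The immediate early genes Jun, Fos and Egr1, which encode transcription factors induced within minutes of a stimulus, were 3 of the higher genes. Jun was 47.8 in SK7_ESC against 665.8, 1012 and 1225, at least 13.3-fold. Fos was 132.6 against 635.5, 419.1 and 1014, and Egr1 was 151.1 against 890.9, 1109 and 1026. The groups do not overlap for any of the 3 genes, since the rule chose them so.

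Transcription factors of patterning were higher for 6 of 33 members. Irx3, a homeobox gene, was 49.7 in SK7_ESC and 647.8, 371.2 and 432.7 in the layers. Sox11 was 119.8 and 3068, 448.8 and 789.1, and Sox4, of the same family, was 1007 and 3818, 3831 and 2507. Tcf12, a basic helix-loop-helix factor, was 358.6 and 2021, 1239 and 1196, and Cited2, a coactivator, was 195.3 and 792.5, 644.7 and 689.5. Greb1 and Greb1l, paralogous genes known from hormone and retinoid responses, were 25.7 and 65.2 in SK7_ESC and at least 396.1 and 527.1 in the layers.

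Cd24a, a surface sialoglycoprotein gene, was 584.5 in SK7_ESC against 4153, 5212 and 3746. Ackr3, a scavenging receptor for the chemokine Cxcl12, was 45.9 and 455.2, 558.7 and 409.7, and Cxcr4, the signalling receptor for the same chemokine, was 7.0 and 781.4, 1711 and 165.6. Among 22 genes of asparagine-linked glycosylation, chosen with the values known, 6 were higher and 0 lower. Alg8, a glucosyltransferase of the lipid-linked precursor, was 39.5 in SK7_ESC and 135.9, 149.0 and 151.3 in the layers.

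**Figure D3:**
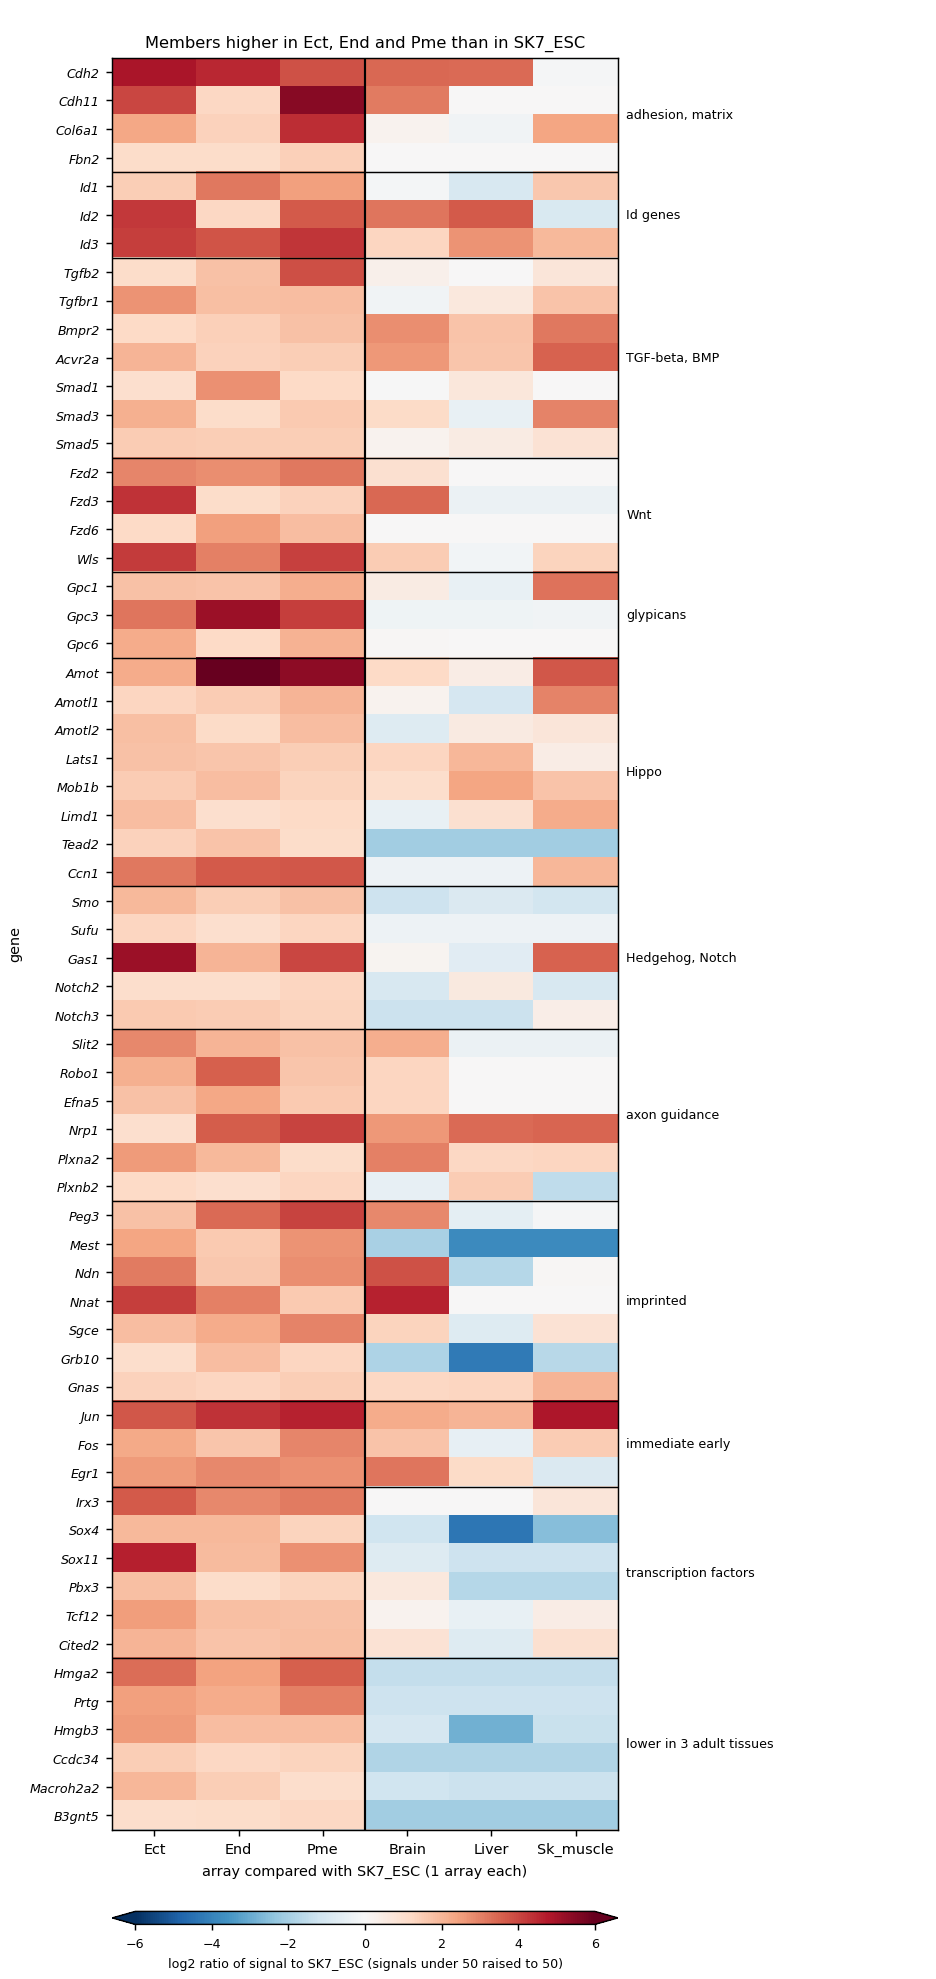
Log2 ratio of signal to SK7_ESC (colour, red higher and blue lower, signals under 50 raised to 50, colours ending at 6) for named higher genes in lines, grouped by role, with 1 array in each column. All cells of the 3 layers are red by the choice of genes, Amot is darkest in End at a signal of 4848, and genes such as Mest, Sox4 and Hmga2 are blue in the 3 adult tissues.

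The adult arrays had no part in the rule apart from the choice of probe set. Of the lower genes, 184 (49.7%) were at 50 or more in Brain, 182 (49.2%) in Liver and 183 (49.5%) in Sk_muscle, against 88.4%, 84.3% and 85.1% of the 5831 other genes at 100 or more in SK7_ESC. In none of the 3 tissues was a signal of 50 reached by 117 lower genes (31.6%), against 5.80% of those other genes, and 114 (30.8%) reached it in all 3. Over all 18194 genes the shares were 49.9%, 43.0% and 43.3%, with 38.2% in none of the 3 and 31.8% in all 3. The other genes, unlike the lower ones, were not chosen for dimmer layers, so nothing is read from the distance between them. The lower set held genes silent in every adult array, such as Pou5f1, Nanog, Dppa5a and Dnmt3l, beside genes in general use, such as Eed, Sod2 and Heatr1.

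Of the 370 lower genes, 11 were at least 2-fold brighter in Brain than in SK7_ESC, 36 in Liver and 22 in Sk_muscle. None of them, 0, was so in all 3 tissues, where 2.27% of all genes were. For single tissues the share over all genes was not counted. At least 2-fold dimmer in all 3 tissues were 216 (58.4%), where 8.89% of all genes were. These counts use the SK7_ESC array that chose the genes for a bright signal, so nothing is read from their distance to the shares. Apoa2 and Apoc1, apolipoprotein genes of plasma lipoproteins, were 124.3 and 121.0 in SK7_ESC, at most 27.5 in the layers, and 13613 and 9953 in Liver. Mylpf, the fast muscle myosin light chain gene, was 662.9 in SK7_ESC, at most 29.5 in the layers and 16521 in Sk_muscle. Tuba4a, an alpha-tubulin gene, was 2080 in SK7_ESC, 94.5, 489.6 and 140.7 in the layers, and 3143, 4789 and 11778 in Brain, Liver and Sk_muscle. Mt1 was 13314 in Liver and 8728 in Sk_muscle.

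The higher genes were measured most often in Brain, where 279 (86.9%) were at 50 or more, with 236 (73.5%) in Sk_muscle and 200 (62.3%) in Liver. For the 5218 other genes at 100 or more in all 3 layers the shares were 91.6%, 88.5% and 87.6%. There were 28 higher genes (8.72%) under background in all 3 tissues, against 4.25% of the other genes. Compared with SK7_ESC, 58 higher genes (18.1%) were at least 2-fold brighter in all 3 adult tissues, where 2.27% of all genes were, and 12 (3.74%) were at least 2-fold dimmer, where 8.89% of all genes were. These counts use the SK7_ESC array that chose the genes, and nothing is read from their distance to the shares over all genes.

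**Figure D4:**
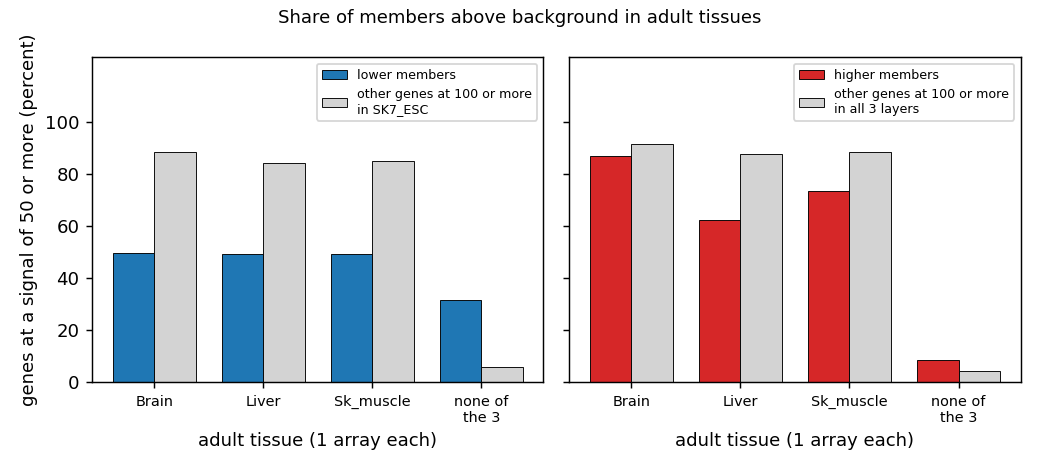
Percent of genes with a signal of 50 or more (y axis, from 0) in each adult tissue and in none of the 3, for lower genes (blue) and higher genes (red) beside other genes that could have been counted in that direction (grey). The blue bars lie near 49% in each tissue against at least 84.3% for the grey bars, and the red bar is 86.9% in Brain and 62.3% in Liver. Shares over all genes, not drawn, were 49.9% in Brain, 43.0% in Liver and 43.3% in Sk_muscle.

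The 12 higher genes at least 2-fold below SK7_ESC in every adult tissue had their highest signals in the cultured germ layers by that choice. Hmga2, an architectural chromatin protein of fetal tissue, was 134.5 in SK7_ESC against 1382, 722.1 and 1598, and at most 16.8 in Brain, Liver and Sk_muscle. Prtg, a cell surface protein of the early neural tube and mesoderm, was 120.1 in SK7_ESC, 667.7, 559.7 and 989.0 in the layers, and at most 27.8 in the tissues. B3gnt5, a glycosphingolipid enzyme gene, was at most 11.9 in the tissues, and Tead2 was under background in all 3. Mest, Sox4 and Grb10, an adaptor that inhibits insulin receptor signalling, were still at 183.5, 440.4 and 289.4 in Brain.

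Many genes are measured by more than 1 probe set, which gives a further readout on the same arrays, although not an independent sample. Counting other probe sets at 100 or more in at least 1 cultured array, 117 of 141 such probe sets of the lower genes (83.0%) met the same rule, and 84 of 223 of the higher genes (37.7%) did. Over all 4826 such probe sets, 4.02% met the lower rule and 3.25% the higher rule. Among the lower genes, 83 of 97 with such a probe set had at least 1 that met the rule, and among the higher genes 63 of 145. The shares of the lower and higher genes are not compared with each other. The lower rule needs a signal of 100 or more in SK7_ESC only, whereas the higher rule needs it in every layer. Further probe sets of Tet1, Dppa2, Klf4, Hspb1, Etv5 and Chchd10 were called lower, and further ones of Cdh2, Jun, Hmga2, Fzd2, Cd24a and Wls were called higher.

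Probe sets of some genes disagreed. For Zmynd8, a chromatin reader gene, the chosen probe set met the higher rule at a ratio of 2.17, whereas another went against it, with 409.6 in SK7_ESC, 78.2 in Ect and 65.7 in End. For Dido1, named here after its values were seen, another probe set was 117.5 in SK7_ESC and between 54.4 and 76.7 in the layers. Other probe sets of Cdh11 at 18.3 in End and of Nrp1 at 32.3 in Ect were under background in a layer. For the angiomotin gene Amot, as for Podxl, Pkdcc and Hipk2, other probe sets gave the difference in fewer than 3 layers. Of the chosen probe sets, 87 of the lower (23.5%) and 82 of the higher genes (25.5%) carry identifiers that mark sequence shared with other transcripts, against 20.9% of all genes.

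**Figure D5:**
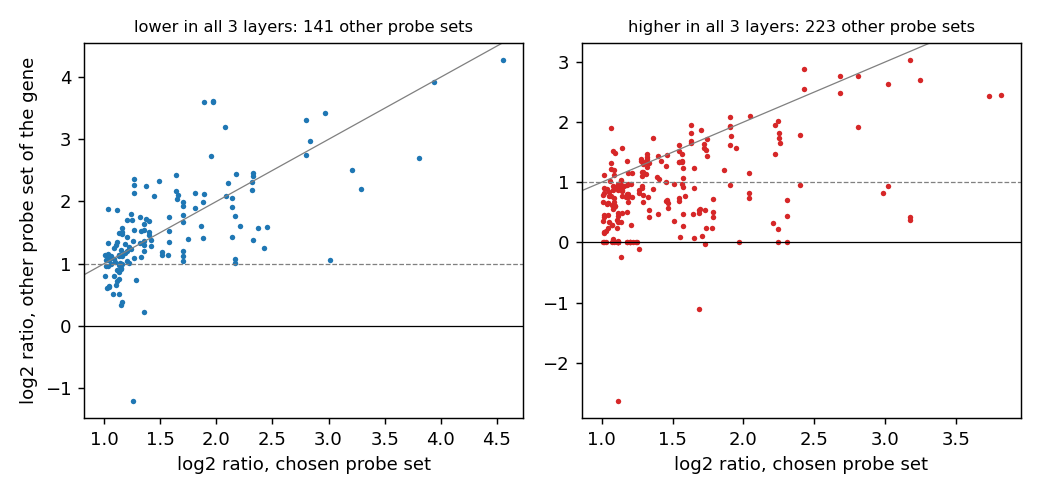
Log2 ratio of the layer nearest to SK7_ESC for the chosen probe set of each gene (x axis) and for its other probe sets at 100 or more in a cultured array (y axis), signed so that positive values follow the direction of the gene, with the dashed line at 2-fold and the diagonal at equality. Of 141 points 117 lie on or above the dashed line in the lower set and 84 of 223 in the higher set. The sets are not compared, since the higher rule needs 100 or more in every layer and the lower rule in SK7_ESC only.

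Some members lie next to each other in the gene order of RefSeq, counting measured genes only. There were 22 neighbouring pairs in which both genes were lower, 4 in which both were higher and 8 in which they went opposite ways. Gdf3, Dppa3 and Nanog form a run on 1 chromosome, as do the zinc finger genes Zfp991, Zfp982 and Zfp979. Dppa4 lies beside Dppa2, Dppa5a beside the oocyte gene Ooep (454.7 in SK7_ESC, with at most 17.7 in the layers), Mt2 beside Mt1, and Zfp42 beside Triml1 (329.7 and at most 1.0). The pairs of higher genes were Tgfbr1 with Alg2, Casd1 with Sgce, Pigp with Ttc3, and Zfp62 with Mgat1. Probe sets of genes that overlap or are close copies, as within the zinc finger and metallothionein pairs, can share signal.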

How the data were processed

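RNA of SK7_ESC, Ect, End, Pme, Brain, Liver and Sk_muscle was measured on 1 Affymetrix Mouse Genome 430 2.0 array each. The deposited intensity values are linear signals that the authors scaled globally to an average of 100 per array, and the mean without the highest and lowest 2% of probe sets was 100 on each of the 7 arrays. How the probes were summarised is not stated in the sources used.

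Of 45101 probe sets, 34958 carried 1 gene symbol in the platform annotation, 932 carried several and 9211 were unnamed here. For each of the 18194 genes, the probe set whose mean over the 7 arrays was highest on the log2 scale was used, with signals under 1 raised to 1 for this choice. Signals under 50 were then raised to 50, and a gene was called at 2-fold in all 3 layers. A fold whose dimmer signal was raised is given as at least that fold. With 1 array per group there is no replicate, no test and no p-value, and precision is limited by the number of arrays. Signals of different genes are not compared.

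The genes, the 27 lists (512 of 544 symbols measured) and the 15 families were chosen with earlier results of these data known. Named genes are called genes or other members of a list, the 20 with the largest ratios in each direction, the 5 on each side of the threshold, the 10 with the largest and smallest spread between layers, the 10 with the highest adult signal, genes opposite in the adult tissues, neighbours in the gene order and genes that the study names. Promoter sequences came from RefSeq (GRCm38.p6). Backgrounds, scalings, the choice of probe set, the fold and the layers left out were varied. Python 3.11.15, numpy 2.4.6, pandas 2.3.3 and matplotlib 3.10.9 were used.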

Additional observations from a re-analysis of the deposited data

Results flagged for a closer look

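For 12 higher genes every germ layer was at least 2-fold above SK7_ESC and every adult tissue at least 2-fold below it, so that the layers and the tissues differed from ES cells in opposite directions. This difference was not tested, since each is 1 array and all ratios share the SK7_ESC array. The ratio of the dimmest layer to SK7_ESC was 5.37 for Hmga2, 4.66 for Prtg, 3.58 for Hmgb3, 3.02 for Mest and 2.49 for Sox4. It was 2.37 for Ccdc34, 2.24 for Zfp647, 2.21 for Ddah2, 2.16 for Tead2, 2.11 for Macroh2a2, 2.11 for Grb10 and 2.05 for B3gnt5. Of the 370 lower genes, 0 were higher than SK7_ESC in all 3 adult tissues, where 2.27% of all genes were.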

How the results depend on the processing

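The counts of 370 lower and 321 higher genes depend on the treatment of dim signals and on the fold. With a background of 20 there were 521 lower and 516 higher genes, and with no filter 1044 and 1335. At 3-fold, 150 and 85 remained, all of them among the 370 and 321. Leaving out 1 layer gave 450 to 557 lower and 407 to 607 higher genes, the highest counts being those without End. With probe sets of the same gene averaged as a geometric mean, 287 genes were lower, 267 of them shared with the 370, and 160 were higher, 142 of them shared with the 321. Probe sets that mark no shared sequence gave 310 and 269. Quantile normalization gave 410 lower and 260 higher genes, and scaling over commonly detected genes 376 and 273. Scaling to the same median gave 495 and 257 and put the median log2 ratio of 5065 genes above background on all 7 arrays at -0.21 in Ect, -0.07 in End and -0.26 in Pme, where the deposited signals gave 0.01, -0.02 and -0.02. Of the 166 called genes named in the text, 115 met the rule with the geometric mean, where 47 ratios moved by over 1.5 times and Zmynd8 turned from higher to a ratio of 0.821. The rule was met by 149 of the 166 with equal medians, 154 with quantile normalization and 90 at 3-fold. The 12 genes opposite in the adult tissues were 16 with a background of 20. The cause of these differences was not tested. The planned comparison of promoter composition was void and was not run. No paired analysis was possible because each group has 1 array.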
